A study of Kluyveromyces lactis with 12 samples.

Results

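In Kluyveromyces lactis, 120 of the 5081 genes on the array were lower in wild-type cells after sodium arsenite and higher in wild-type cells after tert-butyl hydroperoxide (t-BOOH), each relative to untreated wild-type cells. They were chosen by these measured values: a mean log2 level at least 0.7 higher after t-BOOH than without treatment, and at least 0.7 lower after arsenite than without treatment. The wild-type differences between the conditions are therefore a description of the choice and carry no test. Genes with a cytosolic ribosomal protein symbol (RPL, RPS or RPP) made up 46 of the 120, another 33 had other gene symbols and 41 had no symbol. Of the 56 genes measured that carry such a symbol, 46 (82.1%) were in the set, which is 38.3% of the set against 1.10% of all genes. Throughout, ribosomal protein genes are those known by symbol. Any without a symbol, in the set or outside it, were not looked up and are not counted as such.

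Ribosomal proteins assemble with ribosomal RNA into the small and large subunits that carry out translation, and acidic P proteins form a stalk on the large subunit. In Saccharomyces cerevisiae, the related baker's yeast, ribosomal protein genes are transcribed together as a group of very abundant mRNAs that is tuned to growth, and many stresses lower it for a time together with the genes for ribosome assembly. Arsenite binds thiol groups of proteins, and t-BOOH is an organic peroxide that oxidises thiols and lipids. Gene symbols of K. lactis are mostly those of S. cerevisiae counterparts, so each role named here is known from that yeast.

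The study set a strain without the transcription factor gene YAP8 (Klyap8∆) beside wild type (Klwt); in S. cerevisiae Yap8, encoded by ARR1, switches on arsenic efflux genes. Both strains were grown exponentially in rich YPD medium and treated for 30 min with 0.25 mM t-BOOH or sodium arsenite, or left untreated. The labels give the arsenite concentration as 25 mM in a sample field and as 0.1 mM in the protocol, and these data do not settle which was used. Each of 12 two-colour arrays held deletion-strain RNA in one dye and wild-type RNA of the same condition in the other, with 4 biological experiments for t-BOOH, 4 for arsenite and 4 for no treatment, and with the dyes exchanged on 2 of each 4. The deletion is represented by 1 strain, and a level measures the share of a transcript in total RNA, so that more transcript per cell cannot be told apart from less of other RNA.

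All levels below are log2 processed signals minus the median of the same array channel, so that 0 is the channel's median gene, and differences between levels are log2 fold changes. The 4 t-BOOH arrays lay on one slide and the arsenite and untreated arrays together on another, so slide and treatment cannot be told apart in any comparison with t-BOOH, whereas arsenite against untreated lies within 1 slide. Median channel intensities ranged from 719 to 3048.8 for Cy3 and from 2373.8 to 7526 for Cy5, 97.4% to 99.8% of genes were well above background in each channel, and no spot was saturated. ARR1 itself was lower in the deletion channel on 12 of 12 arrays, with log2 ratios of deletion over wild type between -2.20 and -0.61; whether its probe lies in the deleted stretch was not analysed here.

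One untreated array and one t-BOOH array stood apart from the others of their condition. Untreated replicate 4 had a mean correlation with the other untreated arrays of 0.941 in the deletion channel and 0.942 in the wild-type channel, against 0.971 to 0.976 for untreated replicates 1 to 3. The mean correlation of t-BOOH replicate 1 was 0.948 in the deletion channel and 0.944 in the wild-type channel. The median level of the 46 ribosomal protein genes was 5.15 in the deletion channel and 5.24 in the wild-type channel of untreated replicate 4, against 3.05 to 3.39 and 2.68 to 3.25 on the other 3 untreated arrays. The 4 t-BOOH arrays had medians of 3.85 to 4.44 in the deletion channel, all below that array, and of 4.28 to 5.44 in the wild-type channel. On untreated replicate 4 the median of 129 ribosome biogenesis genes was 0.47 and 0.64, near the 0.50 to 0.71 and 0.18 to 0.47 of the other untreated arrays. Its ARR1 ratio of -0.61 was also the one nearest 0. Without untreated replicate 4, only 42 genes met the same limits, and 24 of the 120 were among them: 1 ribosomal protein gene (RPL15B), 14 other genes with symbols and 9 without. That the ribosomal protein genes passed the arsenite limit thus rests on this 1 array. Without it their wild-type arsenite minus untreated differences ran from -0.73 to -0.0077 with a median of -0.42, against -0.05 over all genes. With all arrays, 6 of the 46 met both limits when the median of 4 arrays replaced the mean, 8 after quantile normalization, 11 after Aquantile scaling and 28 with the 75th percentile as the centre.

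**Figure D1:**
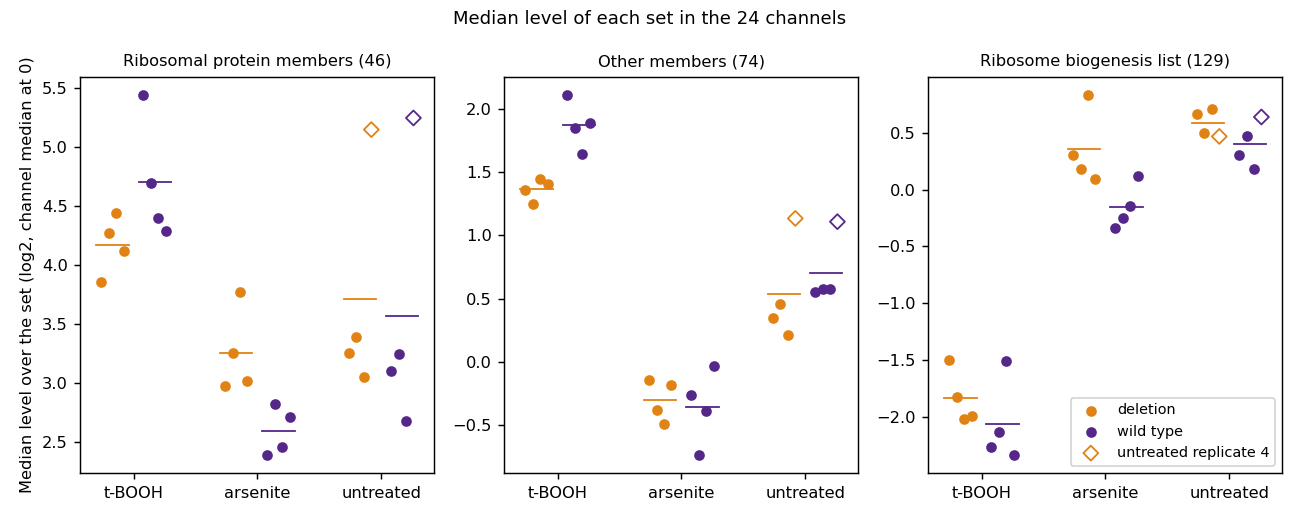
Median level (log2 processed signal minus the channel median) of the ribosomal protein genes, the other genes of the set and the ribosome biogenesis genes on each array, for the deletion and the wild-type channel, with t-BOOH, arsenite and untreated arrays from left to right, untreated replicate 4 drawn as an open diamond and horizontal lines at the mean of 4 arrays. The diamond sits at 5.15 and 5.24 for the ribosomal protein genes, above the other 3 untreated arrays in both strains, and ribosome biogenesis genes were lowest on the t-BOOH arrays.

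Among wild-type cells, the 120 genes had a median difference from untreated cells of 1.06 after t-BOOH, between 0.71 and 3.23, which is 1.64-fold to 9.38-fold. After arsenite the median difference was -0.92, between -2.08 and -0.70, or 1.63-fold to 4.24-fold lower. Over all genes the corresponding medians were 0.13 and -0.07. The set makes up 9.73% of the 1233 genes at or over the t-BOOH limit and 20% of the 600 genes at or under the arsenite limit. On every wild-type t-BOOH array each of the 120 genes was above all 4 wild-type arsenite arrays, a pattern that 30.1% of all genes had, and which the choice of the genes favours. All 4 wild-type t-BOOH arrays were above all 4 untreated arrays for 29 of the 120 genes (22.4% of all genes), none of them a ribosomal protein gene. All 4 wild-type arsenite arrays were below all 4 untreated arrays for 50 of the 120 (19.1% of all genes), 7 of them ribosomal protein genes. These counts rest on the values that chose the genes and nothing is read from them.

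The limits of 0.7 do not fall in a gap. KLLA0C14476g and the small-subunit gene RPS8A were just inside the arsenite limit, with wild-type differences of -0.70 and -0.71, and KLLA0F22198g and the large-subunit gene RPL6A, both at -0.70, were just outside it. LPP1, for a lipid phosphate phosphatase, and RPS17B were just inside the t-BOOH limit, each at 0.71, and KLLA0E17733g at 0.70 and the kinetochore gene DAM1 at 0.69 were just outside. Between arrays of one condition a gene of the set could differ by more than these gaps, as the values below show.

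**Figure D2:**
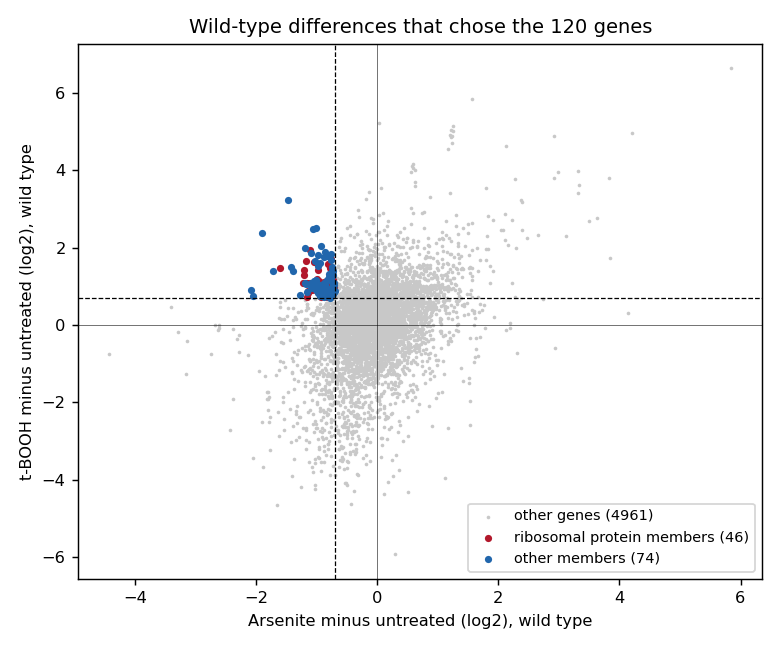
Wild-type t-BOOH minus untreated (vertical axis, log2) against arsenite minus untreated (horizontal axis, log2) for all 5081 genes, with the ribosomal protein genes and the other genes of the set in colour and the limits of 0.7 as lines. Ribosomal protein genes of the set reach 1.94 on the t-BOOH axis, and the other genes spread further, to 3.23.

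The deletion strain gives levels that the choice did not use, although its RNA was hybridised to the same arrays as the wild-type RNA and shares whatever belongs to an array. Its levels were fitted across all genes with limma, and a gene was called at a Benjamini-Hochberg adjusted p under 0.05; 119 of the 120 genes passed the filter on dim spots. Between t-BOOH and arsenite, 74 of 119 (62.2%) were higher after t-BOOH in the deletion strain and none was lower, where 30.4% of all genes tested were called higher; the median difference was 1.18 in the set and 0.17 over all genes. Without untreated replicate 4, 109 of 119 were called higher against 35.3% of all genes, and without t-BOOH replicate 3 the count was 49. The median of the set stayed at 1.18 without untreated replicate 4. That array is not in this comparison and enters its p-values through the spread pooled over conditions. Deletion-strain t-BOOH arrays all lay above all arsenite arrays for 79 of the 120 (32% of all genes). Of the 119 genes, 33 (27.7%) rose in the deletion strain after t-BOOH relative to untreated cells, near the 28.9% of all genes, with medians of 0.59 in the set and 0.15 over all genes. In all, 101 did so without untreated replicate 4, where the share over all genes was 36%. After arsenite, 10 of 119 (8.40%) fell in the deletion strain relative to untreated cells, against 3.6% of all genes, with medians of -0.54 and -0.06. Without untreated replicate 4 the count was 11, against 3.92% of all genes, while the median of the set was -0.11 with 47 of 119 genes above 0, against 1 of 119 with all arrays. The 10 genes were AGA2, UTR4, FUN14, FUS3, CAM1, HNT2, PEX6, KLLA0E13861g, KLLA0C16819g and KLLA0E16149g. The arsenite count was 4 without untreated replicate 2 or without arsenite replicate 2, 3 or 4, 6 without t-BOOH replicate 4 and 17 without t-BOOH replicate 1. No share of all genes is given here for these fits or for the count of 49. Those counts therefore do not tell the set from all genes. All deletion-strain arsenite arrays lay below all untreated arrays for 22 of the 120 (12.1% of all genes). All t-BOOH arrays lay above all untreated arrays for 20 of the 120, a smaller share than the 22.4% of all genes, and none of the 20 was a ribosomal protein gene.

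**Figure D3:**
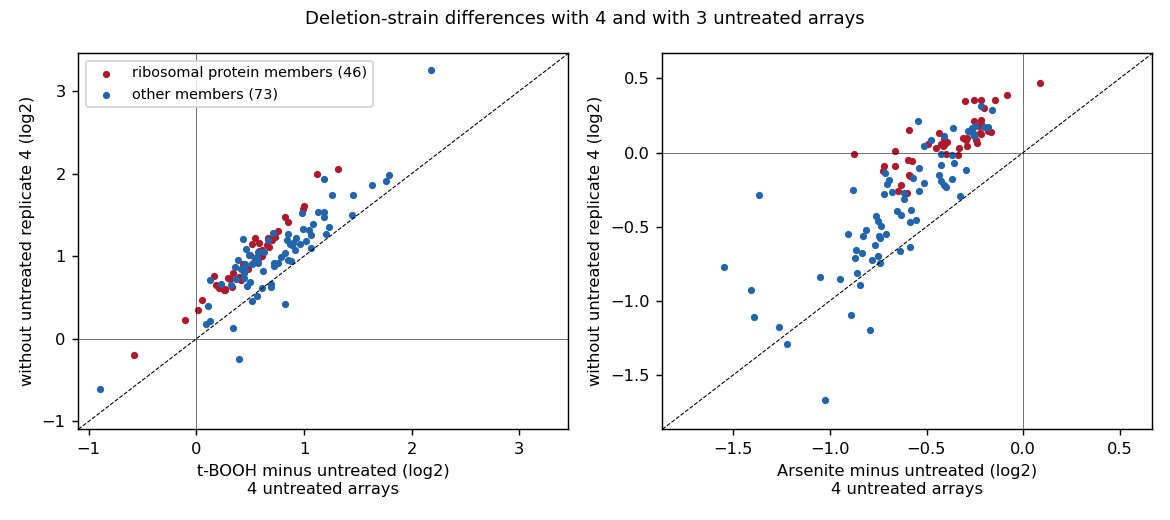
Deletion-strain differences from untreated cells (log2) of the 119 genes tested, with all arrays on the horizontal axis and without untreated replicate 4 on the vertical axis, for t-BOOH and for arsenite, with ribosomal protein genes set apart by colour and a dashed line where both are equal. The median of the ribosomal protein genes is 0.52 for t-BOOH and -0.34 for arsenite with all arrays, and 0.95 and 0.08 without that array.

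The 46 ribosomal protein genes were 21 of the 25 small-subunit (RPS) genes measured, 21 of the 26 large-subunit (RPL) genes and 4 of the 5 stalk (RPP) genes. Their wild-type medians were close to each other: 1.09, 0.91 and 1.12 for t-BOOH minus untreated, and -0.95, -0.88 and -1.04 for arsenite minus untreated. In the deletion strain, 17 of the 46 (37.0%) were called higher after t-BOOH than after arsenite, near the 30.4% of all genes. They were 8 RPS, 7 RPL and 2 RPP genes, and the 46 had a median difference of 0.85, all above 0. None of the 46 was called against untreated cells, with limma, in the deletion strain: after t-BOOH the median was 0.52 and 3 had an unadjusted p under 0.05, and after arsenite the median was -0.34 and 0 did. Without untreated replicate 4, the t-BOOH against untreated count became 38 (82.6%, against 36% of all genes) with a median of 0.95. The t-BOOH against arsenite count in the same fit became 40 (87.0%, against 35.3%) at an unchanged median of 0.85. That array is not in this comparison, and leaving it out changed the spread pooled over conditions, not the difference. In that fit arsenite against untreated still had 0 calls, with a median of 0.08 and 33 of the 46 above 0, against 1 of 46 with all arrays. The arsenite side of the pattern was thus not seen for these genes in deletion cells once that array was left out, and the wild-type median without it was -0.42, with a t-BOOH median of 1.55. The t-BOOH side depended on scaling: with quantile normalization the t-BOOH minus arsenite median of the 46 in the deletion strain was 0.20 with 33 above 0 and 3 called, and in the separate-channel fit it was 0.12 with 31 above 0 and 2 called. With the 75th percentile it was 0.57 with 44 above 0 and 3 called. The t-BOOH minus untreated median of 0.52, with 44 above 0, became 0.063 with 25 above 0 after quantile normalization (1 called higher and 2 lower). It was 0.043 with 25 above 0 in the separate-channel fit (1 called lower) and 0.24 with 36 above 0 with the 75th percentile (0 called by limma). Of the 46, 41 lay in the brightest decile of genes by mean untreated wild-type level. The standard deviation of levels was 2.50 to 2.69 on the t-BOOH slide against 2.23 to 2.45 on the other. The part of brightness in the result was not tested. The genes of that decile off the ribosomal list had wild-type medians of 0.29 for t-BOOH and -0.28 for arsenite.

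Among small-subunit genes, RPS0A encodes a protein at the back of the subunit that is needed for its maturation. RPS0A in the deletion strain had levels of 4.05, 3.83, 4.15 and 3.74 on the t-BOOH arrays, 1.85, 1.93, 2.64 and 1.76 on the arsenite arrays, and 1.98, 1.86, 1.80 and 4.90 on the untreated arrays. Wild-type RPS0A had 5.20, 4.03, 4.17 and 4.15 on the t-BOOH arrays, 0.93, 1.59, 1.25 and 1.55 on the arsenite arrays, and 1.52, 1.73, 1.46 and 5.06 on the untreated arrays. In both strains the t-BOOH arrays were above all arsenite arrays and above untreated replicates 1 to 3, and arsenite and untreated replicates 1 to 3 overlapped. The difference between t-BOOH and arsenite in the deletion strain was 1.90 ± 0.53 (SE, limma adjusted p = 0.0111). RPS28A, another small-subunit protein gene, showed a like pattern with a wider spread. Its deletion-strain levels were 1.62, 1.75, 1.96 and 1.88 on the t-BOOH arrays, -0.65, -0.30, 0.70 and -0.52 on the arsenite arrays, and 0.05, -0.33, -0.43 and 3.43 on the untreated arrays. Its wild-type levels were 2.84, 2.45, 1.44 and 2.28 on the t-BOOH arrays, -1.12, -0.78, -0.57 and -0.85 on the arsenite arrays, and -0.01, -0.54, 0.01 and 3.60 on the untreated arrays. Untreated replicate 4 was the highest of all arrays in both strains, and arsenite replicate 3 was the only arsenite array above the deletion strain's untreated replicates 1 to 3. RPS28A was higher after t-BOOH than after arsenite by 2.0 ± 0.63 (SE, limma adjusted p = 0.02).

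RPS9B and RPS3 encode small-subunit proteins near the mRNA path, and Rps3 also takes part in the cell's handling of damaged ribosomes. RPS9B had deletion-strain levels of 4.54, 4.22, 4.32 and 4.03 on the t-BOOH arrays, 2.82, 2.87, 3.66 and 2.72 on the arsenite arrays, and 2.71, 2.62, 2.64 and 5.13 on the untreated arrays. Wild-type RPS9B had 5.46, 4.70, 4.47 and 4.31 on the t-BOOH arrays, 1.81, 2.10, 2.04 and 2.34 on the arsenite arrays, and 2.43, 2.68, 2.06 and 5.30 on the untreated arrays. All t-BOOH arrays were above all arsenite arrays, and no deletion-strain arsenite array was below all untreated arrays. The deletion-strain difference between t-BOOH and arsenite was 1.26 ± 0.46 (SE, limma adjusted p = 0.0365). For RPS3 the deletion strain gave 3.45, 4.10, 4.11 and 3.95 on the t-BOOH arrays, 2.62, 2.52, 3.19 and 2.32 on the arsenite arrays, and 2.78, 2.71, 2.63 and 5.42 on the untreated arrays. Wild-type cells gave RPS3 levels of 5.47, 4.67, 4.16 and 4.26 on the t-BOOH arrays, 1.62, 2.31, 1.85 and 2.30 on the arsenite arrays, and 2.53, 2.91, 2.35 and 5.12 on the untreated arrays. RPS3 in wild type was lower on each arsenite array than on each untreated array, whereas in the deletion strain arsenite replicate 3 was above untreated replicates 1 to 3. The deletion-strain t-BOOH minus arsenite difference of RPS3 was 1.24 ± 0.46 (SE, limma adjusted p = 0.04).

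RPS18A and RPS11B, for further small-subunit proteins, were alike in shape. RPS18A levels in the deletion strain were 2.88, 4.08, 4.12 and 3.81 on the t-BOOH arrays, 2.33, 2.62, 3.13 and 2.37 on the arsenite arrays, and 2.51, 2.52, 2.40 and 4.65 on the untreated arrays. RPS18A levels in wild type were 5.03, 4.32, 4.09 and 3.77 on the t-BOOH arrays, 1.54, 2.09, 1.86 and 2.08 on the arsenite arrays, and 2.27, 2.49, 1.98 and 4.75 on the untreated arrays. On t-BOOH replicate 1 the deletion-strain level lay below that of arsenite replicate 3, so the groups overlapped, and the difference was 1.11 ± 0.42 (SE, limma adjusted p = 0.0437). RPS11B levels in the deletion strain were 3.41, 4.10, 4.35 and 3.86 on the t-BOOH arrays, 2.54, 2.79, 3.11 and 2.78 on the arsenite arrays, and 2.53, 2.43, 2.37 and 5.10 on the untreated arrays. RPS11B levels in wild type were 5.22, 4.71, 4.37 and 4.68 on the t-BOOH arrays, 1.92, 2.61, 2.22 and 2.33 on the arsenite arrays, and 2.22, 2.34, 2.28 and 5.26 on the untreated arrays. The t-BOOH and arsenite arrays did not overlap in either strain, but the fitted difference of 1.12 ± 0.48 (SE, limma adjusted p = 0.0673) missed the threshold; without untreated replicate 4 its adjusted p was 0.000672. RPS13 and RPS22B also missed it. RPS13 deletion-strain levels were 2.40, 3.79, 4.81 and 3.80 on the t-BOOH arrays, 2.25, 2.47, 2.95 and 2.13 on the arsenite arrays, and 2.45, 2.59, 2.49 and 4.93 on the untreated arrays. RPS13 wild-type levels were 4.86, 4.59, 4.10 and 4.72 on the t-BOOH arrays, 1.32, 1.79, 1.76 and 2.05 on the arsenite arrays, and 2.04, 2.57, 2.11 and 4.92 on the untreated arrays. The low deletion-strain value of t-BOOH replicate 1 fell among the arsenite arrays, and the difference was 1.25 ± 0.55 (SE, limma adjusted p = 0.0743). RPS22B deletion-strain levels were 2.20, 1.76, 1.95 and 1.94 on the t-BOOH arrays, 0.83, 1.11, 1.56 and 0.80 on the arsenite arrays, and 1.01, 1.44, 1.19 and 3.55 on the untreated arrays. RPS22B wild-type levels were 3.47, 2.70, 1.86 and 2.89 on the t-BOOH arrays, 0.17, 0.42, 0.56 and 0.54 on the arsenite arrays, and 1.11, 1.12, 0.81 and 3.52 on the untreated arrays. Its t-BOOH arrays were above all arsenite arrays in both strains, with a deletion-strain difference of 0.89 ± 0.44 (SE, limma adjusted p = 0.112). RPS22B and RPS22A, as well as RPL9A and RPL9B, are pairs of gene copies in the set, and how far their probes share target was not analysed here.

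Large-subunit genes with the widest wild-type response were RPL28, RPL29, RPL9A and RPL30. RPL28, in which cycloheximide resistance mutations are known, had deletion-strain levels of 3.73, 4.26, 4.65 and 4.24 on the t-BOOH arrays, 2.69, 2.96, 3.39 and 2.70 on the arsenite arrays, and 2.89, 2.72, 2.73 and 5.16 on the untreated arrays. Wild-type RPL28 levels were 5.13, 4.59, 4.39 and 4.61 on the t-BOOH arrays, 1.99, 2.33, 2.37 and 2.46 on the arsenite arrays, and 2.30, 2.57, 2.22 and 5.32 on the untreated arrays. All t-BOOH arrays stood above all arsenite arrays and above untreated replicates 1 to 3 in both strains, and untreated replicate 4 was the highest array of all. Its deletion-strain difference between t-BOOH and arsenite was 1.28 ± 0.43 (SE, limma adjusted p = 0.0274). RPL29 had deletion-strain levels of 4.02, 4.89, 4.67 and 4.68 on the t-BOOH arrays, 3.27, 3.41, 4.01 and 3.27 on the arsenite arrays, and 3.60, 3.66, 3.23 and 5.77 on the untreated arrays. Wild-type RPL29 levels were 5.99, 5.04, 4.91 and 4.67 on the t-BOOH arrays, 2.49, 3.30, 2.72 and 3.08 on the arsenite arrays, and 3.52, 3.84, 3.14 and 5.75 on the untreated arrays. Here too the t-BOOH and arsenite arrays did not overlap, and the deletion-strain difference was 1.07 ± 0.40 (SE, limma adjusted p = 0.0413). RPL9A had deletion-strain levels of 4.01, 4.68, 4.67 and 4.69 on the t-BOOH arrays, 2.84, 3.30, 4.04 and 3.02 on the arsenite arrays, and 3.06, 2.74, 2.89 and 5.38 on the untreated arrays. Wild-type RPL9A levels were 5.50, 4.69, 4.59 and 4.38 on the t-BOOH arrays, 2.33, 2.76, 2.45 and 2.62 on the arsenite arrays, and 2.64, 2.80, 2.40 and 5.41 on the untreated arrays. Arsenite replicate 3 of the deletion strain was above t-BOOH replicate 1 and above untreated replicates 1 to 3, and the difference between t-BOOH and arsenite was 1.21 ± 0.45 (SE, limma adjusted p = 0.0402). RPL30, whose protein in S. cerevisiae represses splicing of its own transcript, had deletion-strain levels of 2.01, 4.27, 4.57 and 4.26 on the t-BOOH arrays, 2.80, 3.06, 3.75 and 2.75 on the arsenite arrays, and 3.23, 3.37, 3.08 and 5.22 on the untreated arrays. Wild-type RPL30 levels were 4.15, 4.88, 4.65 and 4.48 on the t-BOOH arrays, 2.04, 2.43, 2.39 and 2.54 on the arsenite arrays, and 2.98, 3.18, 2.40 and 5.27 on the untreated arrays. T-BOOH replicate 1 was the lowest of all deletion-strain arrays for RPL30, and the difference of 0.68 ± 0.52 (SE, limma adjusted p = 0.288) was not called.

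The stalk genes RPP1A and RPP2A encode the acidic proteins that bind each other and recruit translation factors. RPP1A had deletion-strain levels of 4.37, 5.25, 4.98 and 5.04 on the t-BOOH arrays, 3.24, 3.53, 4.69 and 3.36 on the arsenite arrays, and 4.01, 4.02, 3.34 and 5.80 on the untreated arrays. Wild-type RPP1A levels were 5.93, 5.26, 5.29 and 4.82 on the t-BOOH arrays, 2.86, 3.41, 3.12 and 3.17 on the arsenite arrays, and 3.74, 3.72, 3.23 and 5.84 on the untreated arrays. Arsenite replicate 3 of the deletion strain overlapped with the t-BOOH arrays, and the difference was 1.21 ± 0.40 (SE, limma adjusted p = 0.0248). RPP2A had deletion-strain levels of 2.08, 2.93, 3.63 and 3.45 on the t-BOOH arrays, 1.34, 1.78, 2.76 and 1.37 on the arsenite arrays, and 1.76, 1.76, 1.75 and 4.65 on the untreated arrays. Wild-type RPP2A levels were 4.02, 3.57, 3.22 and 3.60 on the t-BOOH arrays, 0.75, 1.16, 1.36 and 1.11 on the arsenite arrays, and 1.59, 1.79, 1.20 and 4.63 on the untreated arrays. The 4 wild-type t-BOOH arrays were above all arsenite arrays, while 3 of 4 were in the deletion strain, and its difference of 1.21 ± 0.57 (SE, limma adjusted p = 0.0924) was not called.

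The called differences of RPS28A, RPS9B, RPS3, RPS18A, RPL28, RPL29, RPL9A and RPP1A between t-BOOH and arsenite in the deletion strain were each lost when arsenite replicate 1 was left out (adjusted p from 0.067 to 0.131) and when t-BOOH replicate 3 was left out (0.057 to 0.130). RPS0A kept its call without any 1 array (highest adjusted p 0.0375). RPS3 kept its call in 3 of the 12 fits that left out 1 array, RPS18A in 3, RPL29 and RPL9A in 4 each, RPS9B in 7, RPL28 and RPP1A in 9 and RPS28A in 10.

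**Figure D4:**
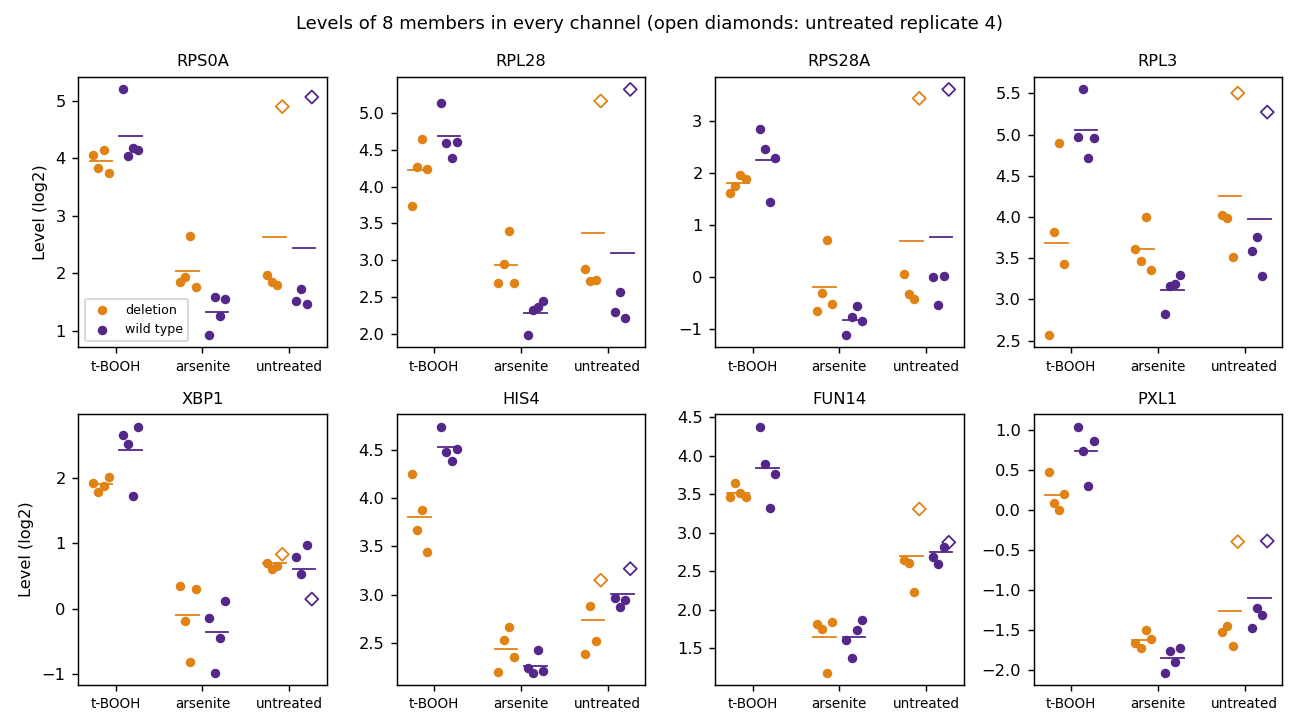
Levels of 8 genes of the set on each array (log2 processed signal minus the channel median) in the deletion strain and, to its right, wild type, with t-BOOH, arsenite and untreated arrays from left to right, untreated replicate 4 as an open diamond and horizontal lines at the mean of 4 arrays. For RPS0A, RPL28 and RPS28A the diamond sits near or above the t-BOOH arrays, while for XBP1, HIS4, FUN14 and PXL1 all t-BOOH arrays are above all untreated arrays in both strains.

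The smallest deletion-strain differences between t-BOOH and arsenite in the set were those of 5 large-subunit genes, RPL3, RPL1B, RPL21A, RPL5 and RPL12B, which were picked for being smallest. RPL3, whose protein lies near the peptidyl transferase centre, had deletion-strain levels of 2.57, 3.82, 4.90 and 3.43 on the t-BOOH arrays, 3.62, 3.46, 4.0 and 3.36 on the arsenite arrays, and 4.03, 3.99, 3.51 and 5.50 on the untreated arrays. Wild-type RPL3 levels were 4.97, 5.55, 4.72 and 4.96 on the t-BOOH arrays, 2.83, 3.16, 3.18 and 3.30 on the arsenite arrays, and 3.59, 3.76, 3.29 and 5.27 on the untreated arrays. All wild-type t-BOOH arrays were above all arsenite arrays, whereas in the deletion strain t-BOOH replicate 1 was the lowest and t-BOOH replicate 3 the highest of those 8 arrays, and the fitted difference was 0.07 ± 0.46 (SE, limma adjusted p = 0.908). RPL1B, for a protein of the stalk on the other side of the subunit, had deletion-strain levels of 3.97, 5.02, 5.25 and 4.83 on the t-BOOH arrays, 4.39, 4.52, 5.13 and 4.31 on the arsenite arrays, and 4.69, 4.55, 4.23 and 6.05 on the untreated arrays. Wild-type RPL1B levels were 6.08, 5.68, 5.04 and 4.92 on the t-BOOH arrays, 3.73, 4.10, 3.61 and 4.03 on the arsenite arrays, and 4.38, 4.57, 3.77 and 6.06 on the untreated arrays. The deletion-strain groups overlapped, with a difference of 0.18 ± 0.34 (SE, limma adjusted p = 0.675). RPL5, whose protein binds 5S ribosomal RNA before it joins the subunit, had deletion-strain levels of 3.35, 3.52, 3.69 and 3.52 on the t-BOOH arrays, 2.91, 2.95, 3.65 and 2.70 on the arsenite arrays, and 2.51, 2.59, 2.57 and 4.18 on the untreated arrays. Wild-type RPL5 levels were 4.64, 4.04, 3.46 and 3.58 on the t-BOOH arrays, 1.96, 2.20, 2.0 and 2.29 on the arsenite arrays, and 2.35, 2.52, 2.17 and 4.40 on the untreated arrays. Arsenite replicate 3 reached the t-BOOH levels in the deletion strain, and the difference was 0.47 ± 0.32 (SE, limma adjusted p = 0.233). RPL21A had deletion-strain levels of 4.68, 5.62, 5.70 and 5.05 on the t-BOOH arrays, 4.51, 4.64, 5.51 and 4.60 on the arsenite arrays, and 4.80, 4.77, 4.32 and 6.11 on the untreated arrays. Wild-type RPL21A levels were 6.82, 6.14, 5.81 and 5.44 on the t-BOOH arrays, 3.86, 4.70, 3.89 and 4.39 on the arsenite arrays, and 4.50, 4.83, 4.27 and 6.14 on the untreated arrays. Its deletion-strain difference was 0.45 ± 0.34 (SE, limma adjusted p = 0.292). RPL12B, for a protein at the base of the P stalk, had deletion-strain levels of 3.99, 4.58, 4.39 and 4.09 on the t-BOOH arrays, 3.59, 3.71, 4.23 and 3.63 on the arsenite arrays, and 3.61, 3.85, 3.48 and 5.09 on the untreated arrays. Wild-type RPL12B levels were 5.67, 4.89, 4.30 and 4.18 on the t-BOOH arrays, 2.85, 3.35, 2.99 and 3.21 on the arsenite arrays, and 3.63, 3.86, 3.20 and 5.39 on the untreated arrays. Its deletion-strain difference was 0.47 ± 0.29 (SE, limma adjusted p = 0.2), and the sign of all 5 differences turned under quantile normalization and in the separate-channel fit.

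The 10 ribosomal protein genes outside the set lay close to it. RPP2B, RPL35A, RPL6A and RPS15 were at 0.95 or more for t-BOOH in wild type and missed the arsenite limit, with differences of -0.68, -0.69, -0.70 and -0.63. RPL37A and RPS20 met the arsenite limit at -1.02 and -0.83 and missed the t-BOOH limit at 0.68 and 0.56. RPL10, the protein whose loading completes the large subunit, had the smallest arsenite difference at -0.18, with 1.04 for t-BOOH. RPL40A, RPS30A and RPS12 missed both limits, at 0.52, 0.36 and 0.53 for t-BOOH and -0.68, -0.53 and -0.49 for arsenite. Over the whole list of 56, only RPP2B was added to the deletion-strain calls. RPP2B differed by 1.28 ± 0.36 (SE, limma adjusted p = 0.0119) for t-BOOH minus arsenite and by 1.11 ± 0.36 (adjusted p = 0.0233, kept in 8 of the 12 fits that left out 1 array) for t-BOOH minus untreated.

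Genes that build ribosomes, such as those for rRNA processing and RNA polymerase I and III, did not share the rise after t-BOOH. None of the 129 measured was in the set, and their wild-type medians were -2.52 for t-BOOH minus untreated and -0.56 for arsenite minus untreated. Without untreated replicate 4 their wild-type arsenite median was -0.45, and that of the 46 ribosomal protein genes was -0.42. In the deletion strain, 124 of the 129 fell after t-BOOH relative to untreated cells by limma, with a median of -2.45, where 21.0% of all genes fell. After arsenite 3 of the 129 (2.33%) fell, against 3.6% of all genes, with a median of -0.29, and 8 (6.20%) did without untreated replicate 4.

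Of translation genes off the ribosomal protein list, CAM1 and ASC1 were in the set. CAM1 encodes a subunit of the exchange factor for elongation factor 1, and its deletion-strain difference was 1.71 ± 0.19 (SE, limma adjusted p = 2.35e-05) between t-BOOH and arsenite. CAM1 differed by 0.96 ± 0.19 (SE, limma adjusted p = 0.00125) between t-BOOH and untreated cells and by -0.75 ± 0.19 (SE, limma adjusted p = 0.0311) between arsenite and untreated, the last kept in 7 of the 12 fits that left out 1 array. ASC1, the RACK1 protein that sits on the small subunit, had a t-BOOH minus arsenite difference of 1.19 ± 0.43 (SE, limma adjusted p = 0.0353), kept in 6 of the 12. In wild type ASC1 was at 6.22 on untreated replicate 4, against a median of 3.86 over the untreated arrays. On the list of 49 aminoacyl-tRNA synthetase and translation factor genes, 13 rose and 2 fell after t-BOOH relative to untreated cells in the deletion strain, and CAM1 was the 1 that fell after arsenite. Over all genes tested, 28.9% rose and 21.0% fell after t-BOOH, and 3.6% fell after arsenite. GCD14, for a subunit of a tRNA methyltransferase, fell by 3.63 ± 0.20 (SE, limma adjusted p = 8.12e-08) after t-BOOH, and ALA1, for alanyl-tRNA synthetase, rose by 1.08 ± 0.18 (adjusted p = 0.000365).

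Genes of pheromone response in the set were STE2 for the alpha-factor receptor, AGA2 for the binding subunit of a-agglutinin and FUS3 for the mating MAP kinase. STE2 had deletion-strain levels of -6.63, -6.44, -5.90 and -5.58 on the t-BOOH arrays, -7.75, -7.72, -7.20 and -7.81 on the arsenite arrays, and -6.62, -7.49, -6.93 and -5.96 on the untreated arrays. Wild-type STE2 levels were -3.84, -4.16, -3.77 and -3.92 on the t-BOOH arrays, -6.72, -7.15, -7.24 and -7.30 on the arsenite arrays, and -6.41, -6.65, -6.47 and -4.11 on the untreated arrays. Wild-type t-BOOH arrays stood apart from all arsenite arrays and from untreated replicates 1 to 3, and untreated replicate 4 was again high. The deletion-strain difference between t-BOOH and arsenite was 1.48 ± 0.27 (SE, limma adjusted p = 0.00086). AGA2 had deletion-strain levels of -5.18, -6.04, -4.92 and -5.09 on the t-BOOH arrays, -6.19, -6.48, -7.15 and -6.85 on the arsenite arrays, and -5.55, -5.72, -5.08 and -5.24 on the untreated arrays. Wild-type AGA2 levels were -3.39, -3.84, -2.54 and -3.27 on the t-BOOH arrays, -6.31, -6.67, -6.61 and -5.89 on the arsenite arrays, and -5.36, -5.04, -5.43 and -2.75 on the untreated arrays. In both strains every arsenite array was below every untreated array. AGA2 fell after arsenite in the deletion strain by a difference of -1.27 ± 0.27 (SE, limma adjusted p = 0.016), which missed the threshold without arsenite replicate 3 (adjusted p = 0.0593) or 4 (0.0551). AGA2 differed by 1.36 ± 0.27 (SE, limma adjusted p = 0.00152) between t-BOOH and arsenite. FUS3 differed by -1.22 ± 0.24 (SE, limma adjusted p = 0.011) between arsenite and untreated cells and by 1.92 ± 0.24 (SE, limma adjusted p = 6.74e-05) between t-BOOH and arsenite. Unlike STE2 and AGA2, wild-type FUS3 was low on untreated replicate 4, at -2.76 against a median of -0.78 over the untreated arrays. Between t-BOOH and untreated cells FUS3 differed by 0.69 ± 0.24 (SE, limma adjusted p = 0.0327), which was kept in 6 of the 12 fits that left out 1 array. The list of mating, cell type and meiosis genes, which holds FUS3 and STE2, went both ways: of 40 tested, 10 rose and 9 fell after t-BOOH, and 2 rose and 4 fell after arsenite, relative to untreated cells. Over all genes 28.9% rose and 21.0% fell after t-BOOH, and 5.28% rose and 3.6% fell after arsenite. STE3, for the a-factor receptor, rose by 3.47 ± 0.25 (SE, limma adjusted p = 5.03e-07) after t-BOOH, and RME1, a repressor of meiosis, fell by 4.24 ± 0.88 (adjusted p = 0.00182). BAR1, for the protease that degrades alpha-factor, fell by 1.58 ± 0.23 (limma adjusted p = 0.00161) after arsenite, and FIG1, for a membrane protein of mating, fell by 1.26 ± 0.21 (adjusted p = 0.00365).

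PCH2 and HFM1 act in meiosis in S. cerevisiae, PCH2 as a checkpoint ATPase and HFM1 (also MER3) as a helicase for crossovers, and both gave dim signals in these cultures. PCH2 had deletion-strain levels of -7.03, -5.97, -5.88 and -7.05 on the t-BOOH arrays, -8.76, -8.68, -9.23 and -8.49 on the arsenite arrays, and -7.67, -7.81, -8.42 and -7.80 on the untreated arrays. Wild-type PCH2 levels were -5.97, -4.94, -5.97 and -5.34 on the t-BOOH arrays, -9.39, -8.55, -8.63 and -9.73 on the arsenite arrays, and -7.74, -8.09, -8.05 and -8.35 on the untreated arrays. The 3 conditions did not overlap in either strain. Since its deletion-strain spots were not well above background on any arsenite array, PCH2 was at least 3.49-fold higher after t-BOOH than after arsenite (limma adjusted p = 8.52e-05). Against untreated cells, where 3 of 4 arrays were well above background, the fitted difference was 1.44 ± 0.30 (SE, limma adjusted p = 0.00195). This bound sets the mean of the t-BOOH arrays against the mean, over arsenite arrays, of the lowest signal well above background. HFM1 had deletion-strain levels of -5.78, -5.64, -5.76 and -5.83 on the t-BOOH arrays, -7.14, -7.30, -9.03 and -6.54 on the arsenite arrays, and -7.34, -6.97, -6.26 and -5.81 on the untreated arrays. Wild-type HFM1 levels were -5.61, -6.12, -5.61 and -6.23 on the t-BOOH arrays, -7.62, -8.36, -9.34 and -7.19 on the arsenite arrays, and -6.65, -7.61, -7.13 and -6.44 on the untreated arrays. Arsenite replicate 3 was its lowest array in both strains, and the deletion-strain t-BOOH minus arsenite difference was 1.75 ± 0.45 (SE, limma adjusted p = 0.00677).

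UTR2, for a cell-wall enzyme that links chitin to glucan, and PXL1, for a paxillin-like protein of sites of growth and division, were higher after t-BOOH in both comparisons. UTR2 had deletion-strain levels of 0.99, 0.65, 1.56 and 1.17 on the t-BOOH arrays, -0.98, -0.91, -0.60 and -0.98 on the arsenite arrays, and -1.07, -0.65, -0.12 and 1.18 on the untreated arrays. Wild-type UTR2 levels were 1.85, 1.71, 1.06 and 1.89 on the t-BOOH arrays, -1.50, -1.48, -1.31 and -1.05 on the arsenite arrays, and -1.04, -0.55, -0.38 and 1.01 on the untreated arrays. UTR2 differed by 1.96 ± 0.39 (SE, limma adjusted p = 0.00153) between t-BOOH and arsenite and by 1.26 ± 0.39 (SE, limma adjusted p = 0.0191) between t-BOOH and untreated cells in the deletion strain. The second call was kept in 9 of the 12 fits that left out 1 array (highest adjusted p 0.0644, without untreated replicate 2). PXL1 had deletion-strain levels of 0.47, 0.09, -0.00085 and 0.20 on the t-BOOH arrays, -1.66, -1.72, -1.49 and -1.60 on the arsenite arrays, and -1.51, -1.44, -1.70 and -0.39 on the untreated arrays. Wild-type PXL1 levels were 1.04, 0.73, 0.30 and 0.86 on the t-BOOH arrays, -2.03, -1.76, -1.89 and -1.72 on the arsenite arrays, and -1.47, -1.22, -1.31 and -0.38 on the untreated arrays. The t-BOOH arrays were above all others in both strains, with a deletion-strain difference of 1.45 ± 0.24 (SE, limma adjusted p = 0.000382) from untreated cells and 1.81 ± 0.24 (SE, limma adjusted p = 9.4e-05) from arsenite. Of 30 cell wall, adhesion and secretion genes, 5 rose and 3 fell after t-BOOH relative to untreated deletion cells. The shares of all genes were 28.9% and 21.0%. After arsenite 0 rose and 4 fell, against 5.28% and 3.6% of all genes. CWP1, a mannoprotein of the wall, fell in both, by 2.04 ± 0.20 (SE, limma adjusted p = 5.72e-06) after t-BOOH and by 1.14 ± 0.20 (adjusted p = 0.0049) after arsenite. CHS2, for a chitin synthase of the septum, fell by 1.07 ± 0.22 (limma adjusted p = 0.00145) after t-BOOH, and CRH1, for a chitin transglycosidase, fell by 1.07 ± 0.22 (adjusted p = 0.0121) after arsenite, a call lost without arsenite replicate 2 (0.0518).

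HIS4, LYS2 and THR1 belong to histidine, lysine and threonine synthesis. HIS4 had deletion-strain levels of 4.25, 3.67, 3.87 and 3.45 on the t-BOOH arrays, 2.21, 2.53, 2.67 and 2.36 on the arsenite arrays, and 2.39, 2.89, 2.52 and 3.15 on the untreated arrays. Wild-type HIS4 levels were 4.74, 4.47, 4.38 and 4.51 on the t-BOOH arrays, 2.25, 2.20, 2.43 and 2.21 on the arsenite arrays, and 2.97, 2.87, 2.94 and 3.27 on the untreated arrays. On each t-BOOH array HIS4 was above every arsenite and untreated array in both strains, and in wild type each arsenite array was below each untreated array. In the deletion strain HIS4 rose after t-BOOH by 1.07 ± 0.21 (SE, limma adjusted p = 0.00137) relative to untreated cells and by 1.37 ± 0.21 (SE, limma adjusted p = 0.000284) relative to arsenite. LYS2, for the reductase of alpha-aminoadipate, differed by 0.86 ± 0.20 (SE, limma adjusted p = 0.00347) between t-BOOH and arsenite, and THR1, for homoserine kinase, by 0.55 ± 0.23 (SE, limma adjusted p = 0.0599), which was not called. Of 68 amino acid biosynthesis genes, 33 rose and 7 fell in the deletion strain after t-BOOH relative to untreated cells (median 0.50), and 1 rose and 0 fell after arsenite (median 0.07). The shares of all genes were 28.9% and 21.0% after t-BOOH, and 5.28% and 3.6% after arsenite. GLY1, for threonine aldolase, rose by 1.83 ± 0.29 (SE, limma adjusted p = 0.000279) after t-BOOH, and AAT1, for an aspartate aminotransferase, fell by 2.89 ± 0.19 (adjusted p = 3.34e-07). ASP1, for asparaginase, was the 1 that rose after arsenite, by 0.96 ± 0.26 (limma adjusted p = 0.04, kept in 3 of the 12 fits that left out 1 array).

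XBP1 encodes a stress-induced repressor of transcription. XBP1 had deletion-strain levels of 1.92, 1.79, 1.88 and 2.01 on the t-BOOH arrays, 0.34, -0.18, -0.81 and 0.30 on the arsenite arrays, and 0.69, 0.61, 0.65 and 0.83 on the untreated arrays. Wild-type XBP1 levels were 2.66, 2.52, 1.73 and 2.78 on the t-BOOH arrays, -0.14, -0.98, -0.44 and 0.13 on the arsenite arrays, and 0.78, 0.54, 0.97 and 0.15 on the untreated arrays. The 3 conditions did not overlap in either strain, and in the deletion strain XBP1 differed by 1.21 ± 0.23 (SE, limma adjusted p = 0.000954) between t-BOOH and untreated cells and by 1.99 ± 0.23 (SE, limma adjusted p = 3.03e-05) between t-BOOH and arsenite. Among 36 stress transcription factor and kinase genes, 9 rose and 5 fell after t-BOOH, and 2 rose and 2 fell after arsenite, relative to untreated deletion cells. The shares of all genes were 28.9% and 21.0% after t-BOOH, and 5.28% and 3.6% after arsenite. PDE2, for a cyclic AMP phosphodiesterase, fell by 2.36 ± 0.33 (SE, limma adjusted p = 0.000104) after t-BOOH and MOT3, a transcription factor, by 1.46 ± 0.20 (adjusted p = 8.89e-05). RPN4, the proteasome gene activator, rose after arsenite by 0.83 ± 0.16 (SE, limma adjusted p = 0.00874) and SKN7, a response regulator, fell by 0.92 ± 0.18 (adjusted p = 0.00982).

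FUN14, for a mitochondrial outer membrane protein, passed the test in all 3 deletion-strain comparisons. FUN14 had deletion-strain levels of 3.47, 3.65, 3.51 and 3.46 on the t-BOOH arrays, 1.82, 1.75, 1.18 and 1.84 on the arsenite arrays, and 2.65, 2.61, 2.22 and 3.31 on the untreated arrays. Wild-type FUN14 levels were 4.38, 3.89, 3.32 and 3.76 on the t-BOOH arrays, 1.61, 1.38, 1.74 and 1.87 on the arsenite arrays, and 2.69, 2.60, 2.81 and 2.87 on the untreated arrays. Every t-BOOH array was above every untreated array and every untreated array above every arsenite array in both strains. The deletion-strain differences were 1.87 ± 0.23 (SE, limma adjusted p = 4.3e-05) for t-BOOH minus arsenite, 0.82 ± 0.23 (SE, limma adjusted p = 0.00945) for t-BOOH minus untreated and -1.05 ± 0.23 (SE, limma adjusted p = 0.0158) for arsenite minus untreated. UTR4, an enzyme of methionine salvage, had deletion-strain levels of 0.10, 0.49, 0.61 and 0.88 on the t-BOOH arrays, -1.42, -1.43, -1.59 and -1.38 on the arsenite arrays, and -0.65, -0.03, -0.92 and 1.41 on the untreated arrays. Wild-type UTR4 levels were 1.45, 1.27, 1.20 and 1.22 on the t-BOOH arrays, -1.68, -1.86, -1.25 and -1.32 on the arsenite arrays, and 0.22, 0.15, 0.01 and 1.71 on the untreated arrays. Untreated replicate 4 was above all t-BOOH arrays in both strains, while the arsenite arrays were below all untreated arrays. UTR4 fell after arsenite in the deletion strain by a difference of -1.41 ± 0.38 (SE, limma adjusted p = 0.0403), a call kept in 4 of the 12 fits that left out 1 array (highest adjusted p 0.123, without arsenite replicate 3). The UTR4 difference between t-BOOH and arsenite was 1.98 ± 0.38 (SE, limma adjusted p = 0.00122). MCH4, a relative of monocarboxylate transporters, had deletion-strain levels of 0.44, 1.37, 1.89 and 1.49 on the t-BOOH arrays, -0.12, -0.03, -0.19 and -0.13 on the arsenite arrays, and 0.15, 0.56, 0.19 and 1.15 on the untreated arrays. Wild-type MCH4 levels were 3.21, 3.51, 2.71 and 3.99 on the t-BOOH arrays, -0.20, -0.34, -0.22 and -0.01 on the arsenite arrays, and 0.76, 0.65, 0.68 and 1.36 on the untreated arrays. The 3 conditions did not overlap in wild type, whereas deletion-strain t-BOOH replicate 1 lay among the untreated arrays. In the deletion strain MCH4 differed by 1.42 ± 0.29 (SE, limma adjusted p = 0.00181) between t-BOOH and arsenite and by 0.79 ± 0.29 (SE, limma adjusted p = 0.0411) between t-BOOH and untreated cells. The second was kept in 2 of the 12 fits that left out 1 array (highest adjusted p 0.131, without t-BOOH replicate 3).

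The other genes with symbols serve several processes and are given by their deletion-strain t-BOOH minus arsenite difference, which limma called for each of them. PSA1 makes GDP-mannose (1.70), VRG4 carries it into the Golgi (1.54) and ALG5 makes dolichol-linked glucose (1.94). HUT1, a relative of UDP-galactose transporters, was at 1.08, MRL1, a membrane protein of vacuolar sorting, at 1.18, and CDC1, which trims GPI anchors, at 1.25. CDC11, a septin, was at 1.41, TEM1, the GTPase of mitotic exit, at 1.42, and DOC1, of the anaphase-promoting complex, at 1.41. PHO89, a sodium-phosphate transporter, was at 1.33, and PNS1, a relative of choline transporters, at 1.82. ATG5, of autophagy, was at 1.43, PEX6, of peroxisome assembly, at 1.21, NCA2, a mitochondrial protein, at 1.75, and LPP1 at 1.10. HNT2, a dinucleoside polyphosphate hydrolase, was at 1.72 and FMP42 at 1.63. Against untreated deletion cells, VRG4 (0.92), ALG5 (1.19), PSA1 (1.05), CDC11 (1.01), TEM1 (0.99), DOC1 (0.87), PNS1 (1.23), PHO89 (0.69), HNT2 (0.89), FMP42 (0.89) and LPP1 (0.51) rose after t-BOOH. PEX6 (-0.74) and HNT2 (-0.83) fell after arsenite, calls kept in 5 and 4 of the 12 fits that left out 1 array, and the t-BOOH calls of PHO89, LPP1 and PSA1 were kept in 10, 9 and 7. All 33 symbol-bearing genes off the ribosomal list had every deletion-strain t-BOOH array above every arsenite array, a pattern that 32% of all genes had. Of the 41 genes without a symbol 27 had it, and of the 46 ribosomal protein genes 19. The lists of 33 fatty acid oxidation and peroxisome genes and of 21 phosphate, zinc and cation transport genes, which hold PEX6 and PHO89, went both ways after t-BOOH relative to untreated cells. In deletion cells 9 were higher and 2 lower in the peroxisome list, and 3 were higher and 7 lower in the transport list. After arsenite the counts were 1 higher and 1 lower, and 0 higher and 2 lower. Over all genes, 28.9% were higher and 21.0% lower after t-BOOH, and 5.28% higher and 3.6% lower after arsenite. TES1 and SPS19, for enzymes of fatty acid oxidation, rose by 1.82 ± 0.16 (SE, limma adjusted p = 2.91e-06) and 1.86 ± 0.26 (adjusted p = 0.000109). SPL2, a regulator of phosphate uptake, and PHO90, a low-affinity phosphate transporter, fell by 2.57 ± 0.21 (limma adjusted p = 1.55e-06) and 1.32 ± 0.19 (adjusted p = 0.00011). After arsenite ANT1, a peroxisomal carrier, rose by 0.63 ± 0.14 (limma adjusted p = 0.0204). ADH4, an alcohol dehydrogenase, and VCX1, a vacuolar calcium exchanger, fell by 1.10 ± 0.20 (limma adjusted p = 0.00778) and 1.04 ± 0.26 (adjusted p = 0.0272). The calls of ANT1 and VCX1 were each kept in 7 of the 12 fits that left out 1 array. Of 7 genes listed as possible strain markers, LYS2 among them, 2 rose and 2 fell after t-BOOH relative to untreated cells, TRP1 by 1.58 ± 0.15 (limma adjusted p = 3.99e-06) and HIS3 by 0.95 ± 0.17 (adjusted p = 0.000578) being those that rose.

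Of the 41 genes without a symbol, the 4 with the largest deletion-strain differences between t-BOOH and arsenite, next to PCH2, are given in full; their products are not named in the gene table used here. KLLA0D05181g had the largest difference of the set, with deletion-strain levels of 2.18, 2.86, 3.15 and 2.72 on the t-BOOH arrays, -1.07, -0.73, -0.43 and -1.03 on the arsenite arrays, and -0.45, -0.56, -0.64 and 3.85 on the untreated arrays. Wild-type KLLA0D05181g levels were 3.83, 3.39, 3.05 and 3.29 on the t-BOOH arrays, -1.77, -1.07, -1.57 and -0.85 on the arsenite arrays, and -0.94, -0.84, -1.59 and 4.01 on the untreated arrays. Like the ribosomal protein genes it was high on the t-BOOH arrays and on untreated replicate 4, and arsenite and untreated replicates 1 to 3 overlapped in wild type. Its deletion-strain difference was 3.54 ± 0.75 (SE, limma adjusted p = 0.00215) for t-BOOH minus arsenite and 2.18 ± 0.75 (SE, limma adjusted p = 0.0299) for t-BOOH minus untreated, the second kept in 8 of the 12 fits that left out 1 array. KLLA0A06996g had deletion-strain levels of 3.42, 3.31, 3.56 and 3.43 on the t-BOOH arrays, 1.26, 1.50, 1.23 and 1.50 on the arsenite arrays, and 1.51, 2.12, 1.15 and 2.40 on the untreated arrays. Wild-type KLLA0A06996g levels were 4.55, 3.81, 3.42 and 3.89 on the t-BOOH arrays, 1.09, 0.53, 1.18 and 1.04 on the arsenite arrays, and 2.04, 1.82, 1.85 and 1.81 on the untreated arrays. Untreated replicate 4 did not stand out in wild type, and t-BOOH arrays were above all others in both strains, with deletion-strain differences of 2.06 ± 0.24 (SE, limma adjusted p = 3.59e-05) from arsenite and 1.63 ± 0.24 (SE, limma adjusted p = 0.000152) from untreated cells. KLLA0E04599g had deletion-strain levels of -3.43, -2.35, -3.06 and -2.51 on the t-BOOH arrays, -5.47, -5.05, -5.15 and -5.18 on the arsenite arrays, and -4.82, -4.66, -5.11 and -3.92 on the untreated arrays. Wild-type KLLA0E04599g levels were -3.20, -2.78, -2.89 and -3.81 on the t-BOOH arrays, -5.27, -5.05, -5.25 and -5.25 on the arsenite arrays, and -4.29, -4.65, -4.94 and -3.80 on the untreated arrays. Its deletion-strain differences were 2.37 ± 0.25 (SE, limma adjusted p = 1.65e-05) from arsenite and 1.79 ± 0.25 (SE, limma adjusted p = 0.000102) from untreated cells, and wild-type arsenite arrays were all below the untreated ones. KLLA0D13288g had deletion-strain levels of -7.39, -7.54, -6.83 and -7.08 on the t-BOOH arrays, -9.62, -10.03, -9.33 and -9.97 on the arsenite arrays, and -9.44, -9.38, -8.53 and -8.54 on the untreated arrays. Wild-type KLLA0D13288g levels were -7.10, -6.31, -6.40 and -6.27 on the t-BOOH arrays, -8.58, -9.49, -8.91 and -9.57 on the arsenite arrays, and -8.37, -8.86, -8.33 and -7.68 on the untreated arrays. Its signal was dim: it was not well above background on any deletion-strain arsenite array and was so on 2 of 4 t-BOOH arrays. The mean of all 4 t-BOOH arrays was 2.18-fold above the mean, over arsenite arrays, of the lowest signal well above background. The fitted difference had a limma adjusted p = 1.59e-05. Since not all t-BOOH arrays were well above background, this fold is not a strict lower bound. Only 2 of 4 untreated arrays were well above background as well, so no difference from untreated cells is given. For KLLA0E09593g this t-BOOH over arsenite fold was 1.19, with 2 of 4 t-BOOH arrays well above background. KLLA0F13981g, the gene that did not pass the filter in the deletion strain, had such a fold of 3.1 in wild type, with 2 of 4 t-BOOH arrays well above background. Wild-type levels chose the gene, so this fold is a description.

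The 86 genes not given in full had wild-type t-BOOH minus untreated differences from 0.71 to 2.38, arsenite minus untreated differences from -2.08 to -0.70 and deletion-strain t-BOOH minus arsenite differences from 0.50 to 1.98, with a median of 1.07. Untreated replicate 4 was also set against the mean of the other 3 untreated arrays. Over the ribosomal protein genes it was higher by a median of 2.22 in wild type and 2.01 in the deletion strain. Over the other 74 these medians were 1.12 and 1.11. Among the 74, they were 1.85 and 1.62 for the 41 without a symbol, and 0.79 and 0.90 for the 33 with one. For single genes this difference ran from -3.49 to 5.13 in wild type.

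The ratio of deletion over wild type on each array compares the strains, but its wild-type part chose the genes, so the counts are a description. In untreated cells 0 of 119 ratios were called by limma in either direction, 8 had an unadjusted p under 0.05, and 0.612% of all genes were called. After arsenite 7 were called higher in the deletion strain, where 0.907% of all genes were: RPS9B, RPS6A, RPS22A, RPL20B, RPL5, RPS23B and RPS1B, all ribosomal protein genes. The median log2 ratio after arsenite was 0.69 over the 46 ribosomal protein genes, between 0.42 and 0.93, and 0.14 over the others. RPS9B ratios, as an example, were -0.79, -0.50, -0.17 and -0.36 on the t-BOOH arrays, 1.0, 0.74, 1.64 and 0.35 on the arsenite arrays, and 0.33, -0.09, 0.56 and -0.15 on the untreated arrays. The arsenite count became 8 without untreated replicate 4, 48 without t-BOOH replicate 1 (2.66% of all genes), 45 without t-BOOH replicate 3 and 0 without arsenite replicate 1, 2 or 3. After t-BOOH, 29 were called lower in the deletion strain, 5 of them ribosomal protein genes, where 10.6% of all genes were. This number became 31 without untreated replicate 4, 17 without t-BOOH replicate 1 (5.68% of all genes), 14 without t-BOOH replicate 2 and 82 without t-BOOH replicate 3. The share of all genes called also moved with the array left out. Ratio counts given without that share do not tell the set from all genes. The difference of the arsenite and untreated ratios was called for 0 of 119 (25 at an unadjusted p under 0.05) and for 0.0395% of all genes. The difference of the t-BOOH and untreated ratios was called lower for 6 of 119, against 1.89% of all genes: MCH4 (-1.76), KLLA0B07139g (-1.55), KLLA0F07887g (-1.27), STE2 (-0.72), KLLA0B05885g (-0.68) and THR1 (-0.67). This count was 3 without untreated replicate 4, between 0 and 3 without any other single array except t-BOOH replicate 3, and 50 without that one. MCH4 ratios were -2.84, -2.17, -0.83 and -2.48 on the t-BOOH arrays, 0.06, 0.30, 0.01 and -0.14 on the arsenite arrays, and -0.56, -0.08, -0.44 and -0.19 on the untreated arrays. STE2 ratios were -1.05, -1.10, -1.07 and -1.09 on the t-BOOH arrays, -0.27, -0.30, 0.13 and -0.16 on the arsenite arrays, and -0.04, -0.27, -0.26 and -0.87 on the untreated arrays. THR1 ratios were -0.94, -0.77, -0.99 and -0.75 on the t-BOOH arrays, 0.41, 0.05, 0.24 and -0.14 on the arsenite arrays, and -0.01, -0.29, -0.38 and -0.10 on the untreated arrays. For all 3 genes every t-BOOH ratio was below every untreated and arsenite ratio.

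Position was not used by the choice. Brightness was not a criterion either, but the mean wild-type untreated level, which orders the deciles, is part of both differences that chose the genes. That mean includes untreated replicate 4, so the decile counts are not independent of the choice. The set held 65 genes of the brightest decile by mean untreated wild-type level, 41 of them ribosomal, and 18 of the dimmest decile. In the order of genes along the chromosomes, 21 of the 120 sat beside another gene of the set, in 12 adjacent pairs, none of which overlap. RPS0A was next to KLLA0E16149g, RPS9B next to both RPL21A and KLLA0E23695g, RPP1A and RPS16B on either side of KLLA0E22001g, TEM1 next to RPS1B, and MCH4 next to KLLA0A07227g. No gene of the set was among the 179 measured genes, of 5081 on the array, within 15 genes of a chromosome end. Neither this count nor that of adjacent pairs was set against other gene sets of this size, and nothing is read from them. By chromosome the set held 12 genes on A, 22 on B, 11 on C, 19 on D, 33 on E and 23 on F, between 1.31% and 3.54% of the genes measured on each.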

How the data were processed

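RNA of Klyap8∆ and Klwt of one condition was hybridised together on each of 12 two-colour Agilent arrays, in 4 experiments a condition that the labels call biological. The authors deposited scanner output as intensities per spot, made with Feature Extraction 10.7.3.1 per the file headers, which also give the processed signals as background-subtracted and dye-normalized within each array. The authors' deposited table of log2 values was set against ratios computed here, array by array. Correlations were 0.991 to 0.999 with slopes of 1.01 to 1.03, which fixes its log base and its direction, deletion over wild type, while nothing read here states its centring. Its column medians were 0.012, -0.015, 0.0065 and -0.027 for t-BOOH, -0.018, 0.0014, 0.00016 and 0.0016 for arsenite, and -0.0080, -0.0027, -0.0011 and -0.011 for untreated arrays, and it served only as an alternative.

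Levels are log2 processed signals averaged over the spots of a gene, minus the channel's median. Deletion-strain levels were fitted with limma 3.58.1 in R 4.3.3 (lmFit and eBayes) with condition and dye as terms, over 12 channels with 8 residual degrees of freedom and 5056 genes well above background on at least 4 channels. Ratios of deletion over wild type came from median signals with normexp background correction (offset 50) and loess within arrays, and were fitted likewise over 5069 genes. A gene was called at a Benjamini-Hochberg adjusted p under 0.05. The scripts were tested on simulated data. Alternatives were other background corrections, scalings and filters, a fit without the dye term, the replicate number as a block, and leaving out each array. The limma p-values rest on a spread for each gene that is pooled over the arrays of all conditions and moderated across genes. An array outside a comparison therefore also changes its p-values. The number of 4 arrays a condition limits their precision.

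The genes and the gene lists were chosen with earlier results of these data known. Values on every array are given for 34 genes: the 25 genes with symbols and the widest wild-type gap between t-BOOH and arsenite, and the 5 largest and the 5 smallest deletion-strain gaps. From each list that holds a gene of the set, the 2 called genes outside the set with the largest change are named for t-BOOH and for arsenite against untreated cells; those for t-BOOH against arsenite are left out, except RPP2B. The further genes of the set that are named with fitted differences, among them FUS3, CAM1, ASC1, LYS2 and THR1, were added after their values were seen. Symbols and gene order came from a RefSeq gene table (assembly ASM251v1), which matched 5069 of the 5081 locus tags, 3955 of them with a symbol. No label or header names the build behind the arrays, and promoter motifs, gene lengths and distances between genes were not analysed here.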

Additional observations from a re-analysis of the deposited data

Results flagged for a closer look

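The level of a gene in a group of 4 arrays was set apart where the highest or lowest array's gap to its nearest neighbour was most of the group's range (Dixon's test); chance sets apart about 1 in 20 groups. Of 720 combinations of gene, strain and condition in the set, 110 (15.3%) were set apart. Untreated replicate 4 was the array in 38 of them in the deletion strain, 26 of these ribosomal protein genes, and in 36 in wild type, 15 of these ribosomal protein genes. Arsenite replicate 3 of the deletion strain held 13 and t-BOOH replicate 1 of the deletion strain 9. Genes share each array, so these counts are not independent.

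The median level of the ribosomal protein genes in the deletion strain on untreated replicate 4, 5.15, was itself set apart, and so was the median of the other genes of the set in wild type on that array, at 1.11. In the deletion strain, untreated replicate 4 was high for RPS11B (5.10), RPS18A (4.65), RPS22B (3.55), RPS3 (5.42), RPS0A (4.90), RPS9B (5.13), RPS13 (4.93) and RPS28A (3.43). It was also high there for RPL5 (4.18), RPL29 (5.77), RPL9A (5.38), RPL30 (5.22), RPL28 (5.16), RPP2A (4.65) and KLLA0D05181g (3.85). In wild type the same array was high for RPS11B (5.26), RPS22B (3.52), RPS0A (5.06), RPS28A (3.60), RPL5 (4.40), RPL9A (5.41), RPL28 (5.32) and RPP2A (4.63). It was set apart in wild type also for MCH4 (1.36), KLLA0D05181g (4.01), AGA2 (-2.75), UTR4 (1.71) and STE2 (-4.11).

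Arsenite replicate 3 of the deletion strain was set apart for RPL21A (5.51), RPS9B (3.66), FUN14 (1.18) and STE2 (-7.20), and t-BOOH replicate 1 of the deletion strain for RPL9A (4.01) and RPL30 (2.01). In wild type, t-BOOH replicate 1 was set apart for KLLA0D13288g (-7.10) and RPS0A (5.20), arsenite replicate 2 for KLLA0E04599g (-5.05) and untreated replicate 1 for KLLA0A06996g (2.04).

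For 6 genes the t-BOOH minus untreated difference was lower in the deletion strain than in wild type, with a limma interaction past the threshold. High wild-type values of this difference chose the genes, so a lower value in the deletion strain is favoured by the choice and these are a description. The count was 3 without untreated replicate 4, and 1 without t-BOOH replicate 1 or with the replicate number as a block. The log2 gaps, deletion minus wild type, were -1.76 for MCH4, -1.55 for KLLA0B07139g, -1.27 for KLLA0F07887g, -0.72 for STE2, -0.68 for KLLA0B05885g and -0.67 for THR1.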

How the results depend on the processing

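Counts of genes of the set that were called in the deletion strain depended most on single arrays. With 1 array left out at a time, the count ranged from 49 to 109 for t-BOOH minus arsenite, from 26 to 101 for t-BOOH minus untreated and from 4 to 17 for arsenite minus untreated. For the ratio of deletion over wild type it ranged from 14 to 82 under t-BOOH, from 0 to 48 under arsenite and from 0 to 1 without treatment, from 0 to 50 for t-BOOH minus untreated, and was 0 throughout for arsenite minus untreated; 42 to 130 genes met the limits. Without untreated replicate 4 and t-BOOH replicate 1 together, chosen after seeing the data, these counts were 115, 107 and 22, then 16, 53, 0, 2 and 0, and 37 genes met the limits, 21 of them in the set. Under the 75th percentile 20 genes were called for t-BOOH minus untreated, and in the separate-channel fit 49 for t-BOOH minus arsenite. That percentile put the median of all genes for wild-type t-BOOH minus untreated at -0.12, against 0.13 with the median. With processed signals, 2 ratios were called without treatment; with only the arrays of the conditions compared, 0 were called under t-BOOH, 71 under arsenite and 0 for t-BOOH minus untreated. The limits were met by 45 genes after Aquantile scaling (40 of the 120), 77 with the 75th percentile (77), 54 with the median of 4 arrays (39) and 62 after quantile normalization (49), which was chosen after seeing the data. The median t-BOOH minus arsenite difference of the set was 1.18 with and without untreated replicate 4, which is not in that comparison. The cause of the shifts was not tested.

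Deviations of same-numbered arrays of different conditions had correlations of -0.25 to 0.29 in deletion levels, with 4 of 12 pairs over 0.1. In ratios the correlations were -0.34 to 0.41, with 2 of 12 pairs over 0.1. These values cannot show whether same-numbered arrays were prepared together. With the replicate number as a block, 73, 36 and 12 genes were called in the deletion strain for t-BOOH minus arsenite, t-BOOH minus untreated and arsenite minus untreated; the ratio counts were 45 under t-BOOH, 32 under arsenite and 0 without treatment, and 1 and 0 for t-BOOH and arsenite minus untreated.

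The t-BOOH minus arsenite difference in the deletion strain turned negative in the separate-channel fit for RPL3 (-0.76), RPL1B (-0.78), RPL5 (-0.19), RPL12B (-0.19), RPL21A (-0.064), RPL30 (-0.12) and THR1 (-0.095). With quantile normalization it did so for RPL3 (-0.61), RPL1B (-0.60), RPL21A (-0.28), RPL12B (-0.21) and RPL5 (-0.14), and with the 75th percentile for RPL3 (-0.21) and RPL1B (-0.098). Without t-BOOH replicate 3 it was -0.47 for RPL3 and -0.10 for RPL1B, and without arsenite replicate 1 it was -0.0078 for RPL3. With 1 array left out at a time it ranged from -0.47 to 0.41 for RPL3 and from -0.10 to 0.38 for RPL1B. Among the named genes, the other processing alternatives lost 32 calls of t-BOOH minus arsenite, 21 of t-BOOH minus untreated and 8 of arsenite minus untreated.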
